A study of Mus musculus with 12 samples.

Results

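Transcripts of 10 genes of the FOXO, sestrin and p53 pathways were followed across 12 RNA sequencing libraries of G1E-ER-GATA-1 cells, a mouse erythroid precursor line. The genes were taken by symbol from tables of 25097 genes: the transcription factors Foxo1, Foxo3, Foxo4 and Trp53, the p53 partner Trp53inp1, the sestrins Sesn1 and Sesn3, and the growth arrest genes Ccng2, Gadd45a and Phlda3. No measured value entered the rule, but the set was proposed with earlier results of these data known. Of the 10, 8 had enough counts to be tested and 2, Foxo1 and Sesn3, did not.

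These cells have no GATA-1 of their own, the factor on which red cell maturation depends, and hold instead a GATA-1 protein joined to part of the estrogen receptor, which becomes active when estradiol is added. The 4 groups of 3 libraries were double mutant cells given 1 µM beta-estradiol and 1 mM 5-aminolevulinic acid (5-ALA) for 48 h, double mutant cells given 1 µM beta-estradiol for 48 h, wild-type (WT) cells given 1 µM beta-estradiol for 48 h, and untreated WT cells. In the double mutant, cis-elements of Alas2 are altered; the labels do not name the elements, and their place in Alas2 comes from general knowledge of the study. The product of Alas2 catalyses the opening step of heme synthesis in red cell precursors, and 5-ALA is what that step yields, so 5-ALA from the medium bypasses it. All 4 groups grew in medium with erythropoietin, Kit ligand conditioned medium and puromycin. No untreated mutant group is analysed here, so the response of mutant cells to estradiol is not given. The labels do not say how many mutant lines were used or whether replicates were separate cultures, so p-values measure the spread between these libraries, which may be technical.

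FOXO proteins are transcription factors that the kinase Akt, acting below growth factor and erythropoietin receptors, phosphorylates and keeps out of the nucleus. When nuclear, they switch on genes of cell cycle arrest, antioxidant defence and autophagy, and FOXO3 is known in red cell precursors for its role in maturation and the response to oxidants. p53, encoded by Trp53 in the mouse, is held low by the ubiquitin ligase Mdm2 and, once stabilised by stress, switches on arrest, repair and death genes. The pathways meet at several of the genes described here: sestrins restrain the growth kinase mTORC1, Gadd45a and Ccng2 slow the cell cycle, and Phlda3 competes with Akt for membrane lipids. These mRNA data do not measure where FOXO or p53 proteins are or whether they are modified.

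Depth ranged over 20309085 to 43548387 expected counts a library, and the correlation across genes (Pearson's r) of libraries in a group ran from 0.99232 to 0.99488. Alas2 followed the labels in every library: it had 12.1 to 12.5 CPM (counts per 1000000, scaled by the TMM method) in mutant cells with 5-ALA, 5.20 to 9.48 CPM in estradiol-treated mutant cells, 4279.5 to 4309 CPM in WT cells with estradiol and 4.47 to 5.96 CPM in untreated WT cells. All 8 erythroid markers were detected in every group. Their summed level was 8313 to 9128 CPM in mutant cells with 5-ALA, 5337 to 5489 CPM in estradiol-treated mutant cells, 10952 to 11093 CPM in WT cells with estradiol and 849.8 to 876 CPM in untreated WT cells. The 3 progenitor markers Kit, Gata2 and Cd34 summed to 42.1 to 46.3, 39.0 to 41.5, 90.5 to 92.9 and 1013 to 1039 CPM in the same order of groups. The 6 megakaryocyte markers summed to 22.4 to 23.2, 13.9 to 14.8, 31.1 to 32.7 and 89.9 to 94.4 CPM, and the 6 mast cell markers to 0.439 to 0.613, 0.274 to 0.613, 1.87 to 2.12 and 134 to 149.7 CPM, with Mcpt8, Fcer1a and Tpsb2 listed at 0 in all groups. Granulocyte, lymphocyte and stromal markers summed to less than 1 CPM in every library. The part of these shifts in the results below was not tested, and in bulk RNA fewer cells of a type and less RNA per cell cannot be told apart.

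Sequence upstream of 3 members is shown because their transcripts moved in different ways: Foxo3 fell in the mutant, and Gadd45a and Sesn1 rose there. The sequences come from the RefSeq promoter table (GRCm38.p6, windows of 250 bases before to 50 bases after each start), trimmed to the stretch that no exon of the GENCODE annotation covers. Windows were given for 8 of the 10 members, 9 windows in all because Sesn1 has 2; Foxo4 and Trp53inp1 had none. The motifs searched, on both strands, were the FOXO motif GTAAACA, the GATA motif in 4 spellings (AGATAA first, AGATAG second, TGATAA next, TGATAG last), the GC box GGGCGG, and the p53 half-site. Capitals mark every match, and no match of one motif overlapped a match of another.
Foxo3 (chr10:42276756-42276945, minus strand): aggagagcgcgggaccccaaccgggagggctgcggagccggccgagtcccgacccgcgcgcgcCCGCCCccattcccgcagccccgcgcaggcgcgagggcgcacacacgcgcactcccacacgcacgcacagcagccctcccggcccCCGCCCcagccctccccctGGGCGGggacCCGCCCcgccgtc
Gadd45a (chr6:67037458-67037657, minus strand): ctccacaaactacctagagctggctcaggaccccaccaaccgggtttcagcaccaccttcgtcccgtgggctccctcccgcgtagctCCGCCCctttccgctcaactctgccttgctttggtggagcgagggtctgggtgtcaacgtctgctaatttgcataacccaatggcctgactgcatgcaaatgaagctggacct
Sesn1, second window (chr10:41887189-41887438, plus strand): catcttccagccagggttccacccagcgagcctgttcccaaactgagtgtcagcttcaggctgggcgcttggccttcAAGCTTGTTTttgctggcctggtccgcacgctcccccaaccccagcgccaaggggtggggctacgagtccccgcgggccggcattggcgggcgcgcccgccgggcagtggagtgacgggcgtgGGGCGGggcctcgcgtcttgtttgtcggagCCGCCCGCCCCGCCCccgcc
The Foxo3 window held 5 GC boxes, of which the one at position -7 lies outside the stretch printed, and no FOXO, GATA or p53 match. The Ccng2 window held 1 GC box and none of the other motifs. GATA matches lay only in the window of Sesn3, which had no counts, as TGATAA at position -249 and AGATAA at position -144. The only FOXO match among the 9 windows lay in the first window of Sesn1, at 23 bases after the start, and the 3 p53 half-sites lay at Gadd45a (position -40 from the start), at the second window of Sesn1 (position -173) and at Trp53 (position -75).
Sesn1, FOXO match (chr10:41810589-41810609, plus strand): cttctacTGTTTACcagcctt
Gadd45a, p53 half-site (chr6:67037432-67037453, minus strand): ggctgaGGGCTAGCCCcatatc
Trp53, p53 half-site (chr11:69580278-69580299, plus strand): acggaaGGACTTGCCCttactt
Among all 32851 windows of the same length in the table, 3.65% held a FOXO match, 29.8% a GATA match, 35.7% a GC box and 8.36% a p53 half-site. A match describes these letters only and is not evidence of binding.

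In TPM (transcripts per 1000000), a scale that is corrected for length and allows genes to be compared, the order of the members differed between untreated and estradiol-treated cells. Trp53 stood first in untreated WT cells at 188 ± 2.12 TPM (mean ± SD, n = 3, as for all such values), followed by Gadd45a at 36.7 ± 2.14 TPM. Foxo3 and Sesn1 came next, at 31.5 ± 1.02 and 30.4 ± 0.750 TPM with overlapping libraries. Trp53inp1, Foxo4, Ccng2 and Phlda3 lay below them, between 16.2 ± 0.277 and 1.67 ± 0.251 TPM. In all 3 estradiol-treated groups Trp53inp1 stood first, at 518 ± 19.7 TPM in mutant cells with 5-ALA, 691 ± 31.6 TPM in mutant cells with estradiol and 1135 ± 30.2 TPM in WT cells with estradiol. In WT cells with estradiol it was followed by Foxo3 at 323 ± 5.50 TPM, Ccng2 at 218 ± 2.38 TPM and Trp53 at 178 ± 2.94 TPM. Gadd45a took second place in mutant cells with estradiol, at 259 ± 14.6 TPM, ahead of Foxo3 at 234 ± 3.43 TPM. In mutant cells with 5-ALA Foxo3 was second at 205 ± 2.10 TPM, and Gadd45a and Trp53 overlapped at 169 ± 5.47 and 168 ± 1.47 TPM. No other neighbours among the 8 tested members overlapped in any group.

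**Figure D1:**
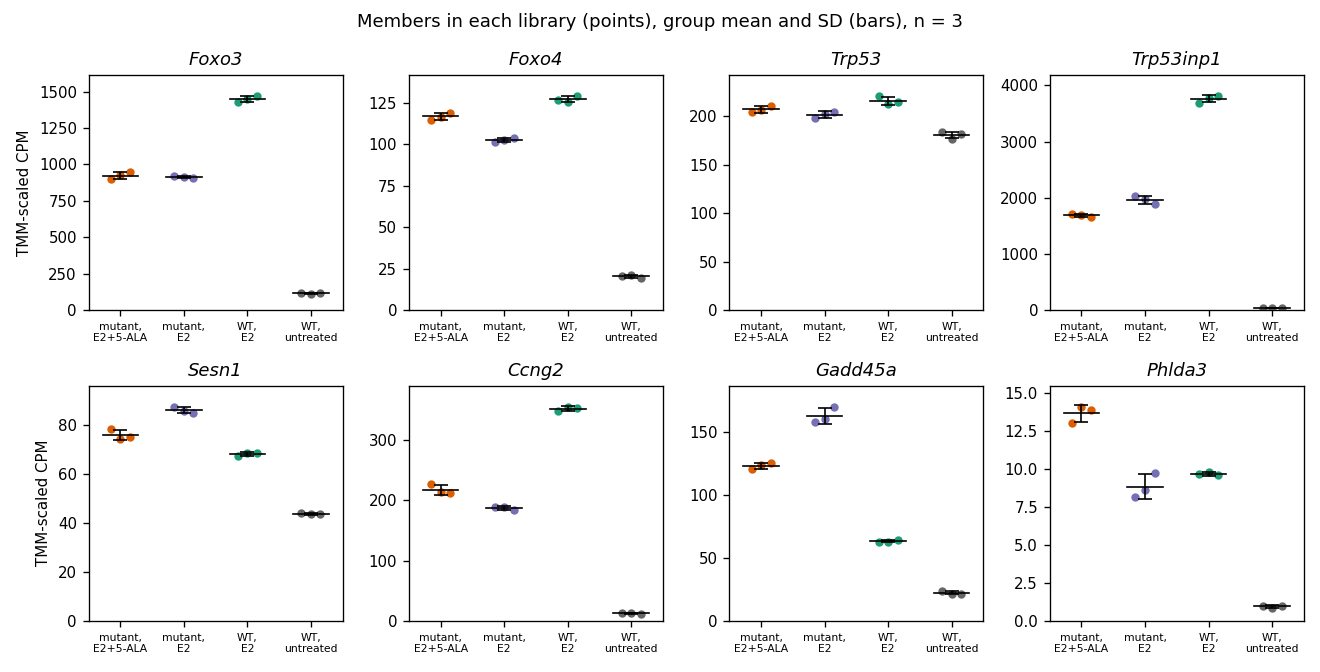
TMM-scaled CPM (y axes, each from 0) of the 8 tested members in each library (points), with the group mean and SD (bars, n = 3), for mutant cells with estradiol (E2) and 5-ALA, mutant cells with estradiol, WT cells with estradiol and untreated WT cells. Foxo3, Foxo4, Trp53, Trp53inp1 and Ccng2 are highest in WT cells with estradiol, Sesn1 and Gadd45a in mutant cells with estradiol, and Phlda3 in mutant cells with 5-ALA; on the TPM scale Trp53 is instead highest in untreated WT cells, at 188 TPM, and in mutant cells with estradiol, at 188 TPM.

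Foxo3 was the most abundant FOXO transcript in every group. The gene lies at chr10:42181841-42276755 on the minus strand (mm10, as for all genes here) and encodes the FOXO factor best known in erythroid cells. It had 897, 928 and 945 CPM in mutant cells with 5-ALA, 921, 916 and 905 CPM in estradiol-treated mutant cells, 1427, 1446 and 1468 CPM in WT cells with estradiol, and 118, 113 and 114 CPM in untreated WT cells. The mutant groups overlapped each other and lay below all WT libraries with estradiol and above all untreated libraries. Here and below, the share of all genes whose groups do not overlap was not counted. As 42.6% to 89.7% of all genes were called in the comparisons that follow, a lack of overlap describes the libraries and is not shown to be particular to a member. Foxo4 (chrX:101254528-101260873, plus strand), a relative with the same kind of DNA-binding domain, had 115, 116 and 119 CPM with 5-ALA, 101, 102 and 104 CPM in estradiol-treated mutant cells, 127, 126 and 129 CPM in WT cells with estradiol, and 20.7, 20.9 and 19.2 CPM in untreated WT cells. None of these 4 groups overlapped another in Foxo4 CPM. Foxo1 (chr3:52268336-52353221, plus strand), the FOXO factor best known from liver and lymphocytes, had only 1.22 to 8.62 expected counts per library, at most 0.282 CPM, and was not tested. Foxo6 was listed at 0 throughout. Of the summed TPM of the 4 FOXO genes, Foxo3 made up 76.9 ± 0.385% in mutant cells with 5-ALA, 78.7 ± 0.321% in mutant cells with estradiol, 82.7 ± 0.117% in WT cells with estradiol and 71.0 ± 1.00% in untreated WT cells. Foxo4 made up nearly all the rest, 23.1 ± 0.386%, 21.3 ± 0.321%, 17.3 ± 0.119% and 29.0 ± 0.968% in that order of groups.

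Trp53 (chr11:69580359-69591873, plus strand), the gene of p53 itself, varied least among the 8 tested members. It had 204, 206 and 211 CPM in mutant cells with 5-ALA, 198, 202 and 205 CPM in estradiol-treated mutant cells, 221, 212 and 214 CPM in WT cells with estradiol, and 183, 177 and 182 CPM in untreated WT cells. The mutant groups overlapped each other. On the TPM scale the same libraries gave 168 ± 1.47, 188 ± 2.09, 178 ± 2.94 and 188 ± 2.12 TPM. A pseudogene, Trp53-ps, is annotated in the mouse genome but is not among the genes of the tables, so its reads, if any, may have been assigned to Trp53. The abundance-weighted transcript length of Trp53, which follows the mix of the 6 transcripts counted, was 1888 ± 1.98 bases in mutant cells with 5-ALA, 1900.4 ± 4.81 bases in mutant cells with estradiol, 1873 ± 3.36 bases in WT cells with estradiol and 1811 ± 1.62 bases in untreated WT cells. No group overlapped another in this length, which is given as a description without a test. Such a shift was not particular to Trp53. The lengths of Sesn1 and Foxo4 in untreated WT cells also lay apart from those in every estradiol-treated group, and were longer there.

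**Figure D2:**
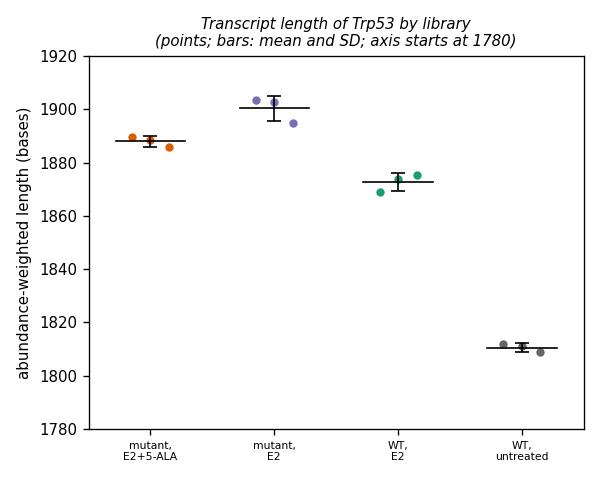
Abundance-weighted length of the Trp53 transcripts in bases (y axis, which does not start at 0) in each library (points), with the group mean and SD (bars, n = 3). Mutant cells with 5-ALA average 1888 bases, mutant cells with estradiol 1900.4 bases, WT cells with estradiol 1873 bases and untreated WT cells 1811 bases, and no groups overlap.

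Trp53inp1 (chr4:11156431-11174379, plus strand), a p53-induced nuclear protein that takes part in autophagy and cell death, had the widest range of the set. It had 1716, 1687 and 1651 CPM in mutant cells with 5-ALA, 2027, 1987 and 1884 CPM in estradiol-treated mutant cells, 3689, 3784 and 3809 CPM in WT cells with estradiol, and 44.6, 44.2 and 43.9 CPM in untreated WT cells. The lowest library of each group lay above the highest of the next in the order WT with estradiol, mutant with estradiol, mutant with 5-ALA, untreated WT.

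Sesn1 (chr10:41809935-41908424, plus strand), a sestrin that p53 and FOXO factors are known to induce, had 78.5, 74.6 and 75.1 CPM in mutant cells with 5-ALA, 87.5, 85.9 and 85.1 CPM in estradiol-treated mutant cells, 67.4, 68.7 and 68.6 CPM in WT cells with estradiol, and 44.2, 43.6 and 43.7 CPM in untreated WT cells. No groups overlapped, and mutant cells with estradiol were highest. Sesn3 (chr9:14275067-14333101, plus strand), the sestrin known as a FOXO target, had an expected count of 0 in all 12 libraries. A floor of 3 counts per library allows up to 0.0681 to 0.146 CPM, and the tables hold 1 transcript of Sesn3. Sesn2, the other sestrin gene and no member of the set, had 133 ± 7.79 CPM in mutant cells with 5-ALA, 133 ± 4.65 CPM in estradiol-treated mutant cells, 177 ± 4.11 CPM in WT cells with estradiol and 48.0 ± 1.76 CPM in untreated WT cells. By TPM, Sesn1 made up 43.0 ± 2.14% of the sestrin transcripts in mutant cells with 5-ALA, 46.2 ± 1.18% in mutant cells with estradiol, 33.8 ± 0.778% in WT cells with estradiol and 54.1 ± 0.959% in untreated WT cells, and Sesn2 made up the rest. Sesn1 and Foxo3 lie on the same chromosome, with 273416 bases between the end of Sesn1 and the start of Foxo3. The only protein-coding gene between them, Armc2, averaged 0.176 CPM in mutant cells with 5-ALA, 0.205 CPM in estradiol-treated mutant cells, 0.247 CPM in WT cells with estradiol and 0.194 CPM in untreated WT cells.

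Ccng2 (chr5:93267257-93276231, plus strand), an unconventional cyclin that slows the cell cycle and is a known FOXO target, had 227, 213 and 212 CPM in mutant cells with 5-ALA, 189.4, 189.0 and 184 CPM in estradiol-treated mutant cells, 348, 355 and 353 CPM in WT cells with estradiol, and 13.09, 13.23 and 11.99 CPM in untreated WT cells. None of these groups overlapped in CPM. Gadd45a (chr6:67035096-67037457, minus strand), a small stress protein that p53 and FOXO factors induce, had 120.2, 124 and 125 CPM with 5-ALA, 158, 160.3 and 169.8 CPM in estradiol-treated mutant cells, 62.8, 62.6 and 64.5 CPM in WT cells with estradiol, and 23.5, 21.6 and 21.5 CPM in untreated WT cells. Every mutant library, with or without 5-ALA, lay above every WT library, as for Sesn1. Exons of Gadd45a overlap those of E230016M11Rik on the opposite strand, a gene not among those counted. As no strand setting was given, reads of that gene, if any, may have been assigned to Gadd45a. Phlda3 (chr1:135766119-135769136, plus strand), a p53 target that restrains Akt, had 13.0, 14.1 and 13.9 CPM with 5-ALA, 8.17, 8.65 and 9.73 CPM in estradiol-treated mutant cells, 9.66, 9.84 and 9.59 CPM in WT cells with estradiol, and 0.999, 0.858 and 1.00 CPM in untreated WT cells. Mutant and WT cells with estradiol overlapped, and the 5-ALA libraries lay above both. Phlda3 rested on 20.98 to 40 expected counts per library in untreated WT cells, the fewest of any tested member.

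**Figure D3:**
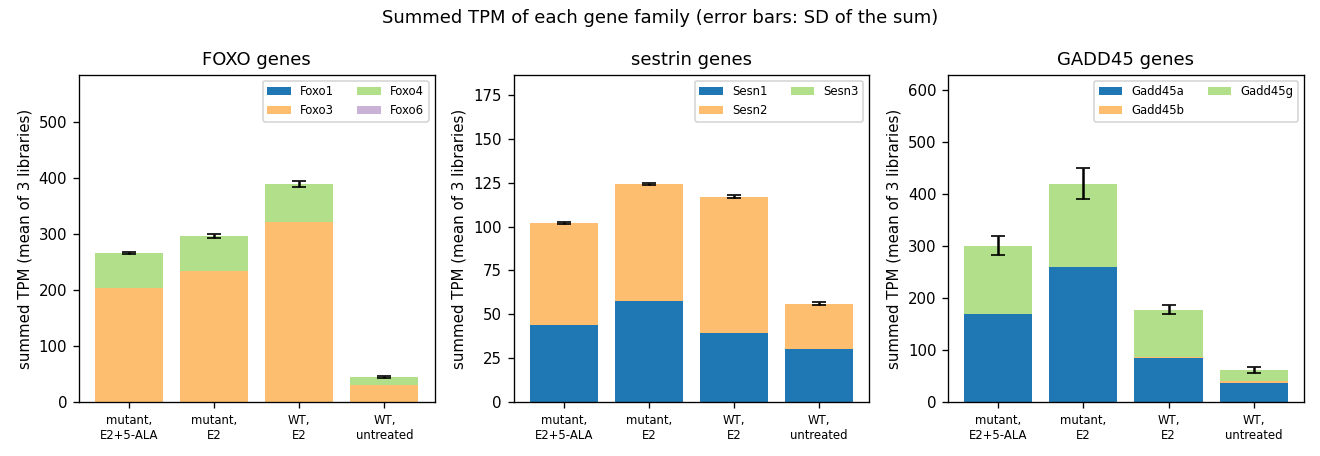
Summed TPM (y axes, from 0) of the FOXO genes, the sestrin genes and the GADD45 genes, mean of 3 libraries, stacked by gene, with the SD of the sum as error bars, for mutant cells with estradiol (E2) and 5-ALA, mutant cells with estradiol, WT cells with estradiol and untreated WT cells. The FOXO sum is 266 TPM in mutant cells with 5-ALA, 297 TPM in mutant cells with estradiol, 390.2 TPM in WT cells with estradiol and 44.3 TPM in untreated WT cells, and the GADD45 sum peaks at 419 TPM in mutant cells with estradiol.

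The first comparison asked which members respond when GATA-1 activity is restored. All 8 tested members rose in WT cells with estradiol over untreated WT cells by CPM, and they differed widely in size, while on the TPM scale Trp53 was lower (log2 change -0.08, adjusted p = 0.00303, limma). Of all 12115 genes tested, 89.7% were called, 43.3% higher and 46.4% lower in this comparison, so that a call by itself says little here and the size says more. The median log2 fold change was 2.99 over the 8 members and -0.03 over all genes, a signed median in which rises and falls offset each other. Of the 8, 6 changed at least 2-fold, but the share of all genes that changed as much was not counted. Here and below a gene is called at an adjusted p below 0.05 in edgeR's quasi-likelihood test with Benjamini-Hochberg adjustment over all 12115 genes.

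Trp53inp1 rose 85.1-fold (log2 fold change 6.41, SE 0.0327, edgeR adjusted p = 4.62e-42). Ccng2 rose 27.7-fold (log2 4.79, SE 0.0361, edgeR adjusted p = 1.76e-38). Foxo3 rose 12.6-fold (log2 3.65, SE 0.0274, edgeR adjusted p = 1.61e-38) and Foxo4 6.29-fold (log2 2.65, SE 0.0344, edgeR adjusted p = 9.23e-33). Phlda3 rose 10.01-fold with the widest interval of the set, a log2 change of 3.10 to 3.55 (95%). Gadd45a rose 2.84-fold and Sesn1 1.56-fold. Trp53 rose 1.19-fold by CPM (log2 0.26, SE 0.0241, edgeR adjusted p = 5.03e-11), and its sign turns by TPM as given above. The median of all genes stood at -0.23 on the TPM scale against -0.03 by CPM, and relative to those medians Trp53 stood at 0.15 and 0.29.

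Among the family relatives, 5 of 6 tested rose and 1 fell by both scales. Phlda1, a relative of Phlda3, rose 23.3-fold, Gadd45g 5.36-fold, Trp53inp2 3.94-fold, Sesn2 3.66-fold and Ccng1 3.42-fold, while Gadd45b fell to 0.831 ± 0.257 CPM with estradiol, against 2.83 ± 0.387 CPM in untreated WT cells. Trp63, Trp73, Foxo6 and Phlda2 had too few counts to test. Other known FOXO-responsive genes mostly rose: 16 of 20 tested were higher, 3 lower and 1 not called, with a median log2 change of 2.30. The mitophagy kinase Pink1 rose to 155 ± 1.45 CPM with estradiol, against 5.64 ± 0.625 CPM in untreated WT cells, the autophagosome protein gene Map1lc3b rose 13.6-fold, and the insulin receptor substrate Irs2 15.0-fold. Other known p53-responsive genes were higher in 15 of 20 tested, lower in 4 and not called in 1, with a median of 1.40. Btg2, an antiproliferative gene, rose to 2804 ± 15.2 CPM with estradiol, against 11.7 ± 0.634 CPM in untreated WT cells, the cell cycle inhibitor Cdkn1a (p21) rose 13.4-fold and the receptor gene Eda2r 17.8-fold.

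The genes that act on FOXO or p53 split more evenly. Of 20 FOXO regulators tested, 9 rose, 10 fell and 1 was not called, with a median log2 change of -0.23. The nuclear export receptor Xpo1, which carries FOXO proteins out of the nucleus, fell to 37.9 ± 1.24 CPM with estradiol, against 503 ± 17.7 CPM in untreated WT cells. Skp2, a ubiquitin ligase subunit, fell to 2.55 ± 0.393 CPM, against 81.2 ± 4.59 CPM in untreated WT cells, while the acetyltransferase gene Crebbp rose 5.29-fold. Of 16 p53 regulators, 10 rose, 5 fell and 1 was not called, with a median of 0.55. Mdm2 rose 7.77-fold and the p53 cofactor gene Ppp1r13b 8.41-fold, and the checkpoint kinase Chek1 fell to 1.71 ± 0.172 CPM, against 77.3 ± 2.20 CPM in untreated WT cells. In the GATOR and mTORC1 arm that sestrins act on, 8 of 20 rose, 11 fell and 1 was not called, with a median of -0.36. The Rag GTPase genes Rragd and Rragc rose 29.1-fold and 5.71-fold, and Tsc1, which restrains the mTORC1 activator Rheb, rose 4.22-fold.

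The second comparison asked what differs in cells whose Alas2 stays low with estradiol. Mutant and WT cells may also differ as lines, and here and in the fourth comparison such differences cannot be told apart from those that go with low Alas2. In this comparison rose and fell mean higher and lower than in WT cells with estradiol. In mutant cells with estradiol, set against WT cells with estradiol, 7 of the 8 tested members were called (background 68.8% of genes), 2 higher (background 35.1%) and 5 lower (background 33.6%), and 1 was not called. Gadd45a and Sesn1 rose, Trp53inp1, Ccng2, Foxo3 and Foxo4 fell, and Trp53 was lower by CPM but higher by TPM. On the TPM scale 3 were higher, 3 lower and 2 not called. Over all genes, 4258 were higher and 4076 lower by CPM, and 5618 higher and 2326 lower by TPM. The median log2 change by CPM was -0.22 over the 8 members and -0.01 over all genes. Gadd45a rose 2.57-fold (log2 1.36, SE 0.0323, edgeR adjusted p = 8.95e-25), the largest change of the 8 tested members by CPM. Sesn1 rose 1.26-fold (log2 0.34, SE 0.0303, edgeR adjusted p = 5.31e-11).

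Trp53inp1 fell by 0.94 on the log2 scale (SE 0.0253, edgeR adjusted p = 2.15e-23), Ccng2 by 0.91 and Foxo3 by 0.66 (SE 0.0242, edgeR adjusted p = 3.51e-20). In all 3, the libraries of mutant cells with estradiol lay above the untreated WT libraries. Foxo4 fell by 0.31 by CPM and stood at -0.10 on the TPM scale without a call (adjusted p = 0.0567, limma). Trp53 had a log2 change of -0.10 by CPM (edgeR adjusted p = 0.000708) and 0.07 by TPM (adjusted p = 0.00775, limma), and it was not called without a filter on low counts (adjusted p = 0.0598, edgeR). The median of all genes was 0.12 on the TPM scale here. Phlda3 was not called (log2 -0.13, 95% interval -0.28 to 0.03, edgeR adjusted p = 0.154). Without mutant estradiol replicate 3 it was called lower, at -0.20 (edgeR adjusted p = 0.0426), and by TPM it stood at 0.05.

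**Figure D4:**
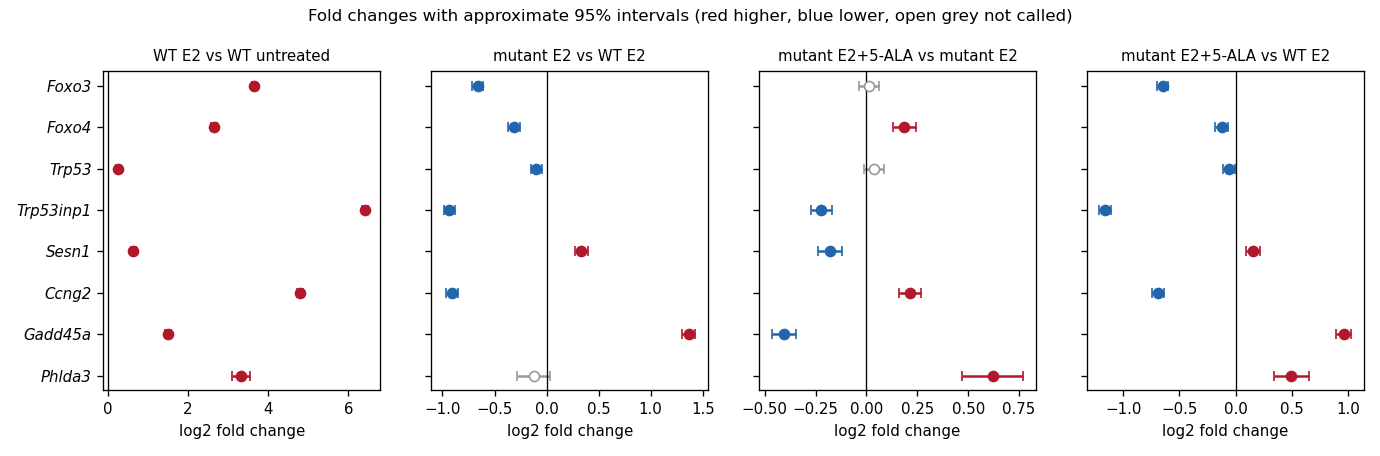
Log2 fold changes by CPM (x axes) of the 8 tested members (rows) in the 4 comparisons (panels), with approximate 95% intervals; red points are called higher, blue lower and open grey ones not called. Against WT cells with estradiol, Gadd45a and Sesn1 lie right of 0 in both mutant groups, and Foxo3, Foxo4, Trp53inp1 and Ccng2 left of it; on the TPM scale the sign turns for Trp53 with estradiol in WT cells, for Trp53 and Phlda3 in mutant against WT cells, and for Foxo3, Foxo4 and Trp53 with 5-ALA in mutant cells.

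Among the family relatives, Phlda1 fell by 1.95 on the log2 scale, Ccng1 by 0.46 and Sesn2 by 0.41, Trp53inp2 and Gadd45g rose by 0.91 and 0.60, and Gadd45b was not called. Known FOXO-responsive genes were lower in 15 of 20 tested, higher in 2 and not called in 3 by CPM, with a median of -0.20, against 7 lower, 3 higher and 10 not called by TPM, with a median of -0.02. Catalase (Cat) fell to 276 ± 2.74 CPM in mutant cells, against 629 ± 2.53 CPM in WT cells with estradiol, the autophagy kinase Ulk1 fell by 0.94 and Irs2 by 0.89 on the log2 scale. Known p53-responsive genes were lower in 14 of 20, higher in 1 and not called in 5 by CPM, with a median of -0.24, against 7 lower, 2 higher and 11 not called by TPM, with a median of -0.01. Btg2 fell to 1372 ± 20.1 CPM in mutant cells, against 2804 ± 15.2 CPM in WT cells with estradiol, Eda2r by 0.99 and the RNA-binding protein gene Zmat3 by 0.89 on the log2 scale. Gadd45a and Sesn1, which belong to the same known target groups, rose where most of the other listed targets fell or were not called.

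FOXO regulators split into 7 higher, 10 lower and 3 not called by CPM and 10 higher, 3 lower and 7 not called by TPM. Ikbkb, a kinase of the NF-kB pathway that also phosphorylates FOXO3, rose 1.65-fold, and the kinases Mapk8 and Stk4 fell by 0.58 and 0.53 on the log2 scale. Of the p53 regulators 6 were higher, 9 lower and 1 not called by CPM and 9 higher, 5 lower and 2 not called by TPM. Ppp1r13b fell by 1.14, Mdm2 by 0.95 and Chek1 by 0.92 on the log2 scale. Chek1 was low in both groups, at 0.951 ± 0.229 CPM in mutant cells and 1.71 ± 0.172 CPM in WT cells with estradiol. It reached the mean of 5 CPM needed to be named only through untreated WT cells. In the GATOR and mTORC1 arm 6 were higher, 8 lower and 6 not called by CPM and 10 higher, 2 lower and 8 not called by TPM. The mTOR subunit gene Mlst8 rose 1.75-fold, Wdr59 of GATOR2, the complex that sestrins bind, 1.75-fold, and Nprl3 of GATOR1 fell by 0.53. The medians of the 3 lists by CPM were -0.03, -0.09 and -0.02, against 0.16, 0.15 and 0.14 by TPM.

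**Figure D5:**
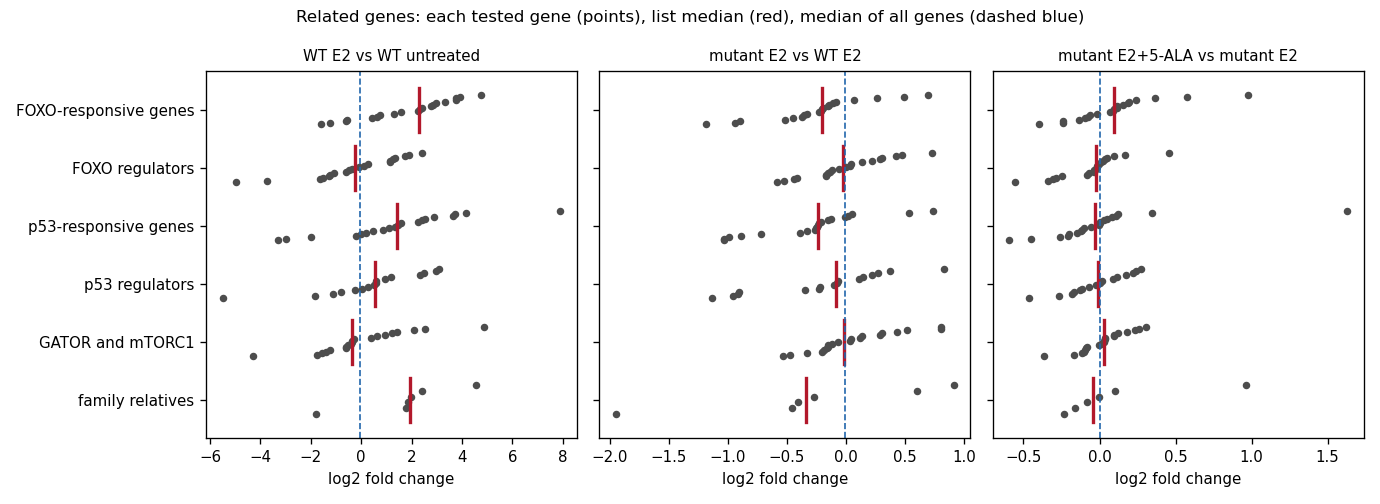
Log2 fold changes by CPM (x axes) of each tested gene (points) of 6 lists of related genes (rows) in 3 comparisons (panels), with the list median (red bar) and the median of all 12115 genes (dashed blue line). With estradiol in WT cells the medians of the FOXO-responsive and p53-responsive lists are 2.30 and 1.40, in mutant against WT cells -0.20 and -0.24, and with 5-ALA in mutant cells 0.09 and -0.03; on the TPM scale the medians of the second panel are -0.02 and -0.01, and those of the third -0.10 and -0.24.

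The third comparison asked what differs when the precursor is supplied from outside. In mutant cells with estradiol and 5-ALA, set against mutant cells with estradiol alone, 6 of the 8 tested members were called by CPM (background 42.6% of genes), 3 higher (background 21.6%) and 3 lower (background 21.0%), and 2 were not. On the TPM scale, where the median of all genes was -0.15, 1 was higher, 5 lower and 2 not called. Over all genes, 2620 were higher and 2543 lower by CPM, and 806 higher and 5719 lower by TPM. Gadd45a, Sesn1 and Trp53inp1 fell on both scales and Phlda3 rose on both. Phlda3 rose 1.54-fold (log2 0.62, SE 0.0736, edgeR adjusted p = 5.27e-08), the largest change of the 8 tested members by CPM, while by TPM Gadd45a changed most, at -0.61 against 0.41 for Phlda3. Gadd45a fell by 0.41 on the log2 scale (SE 0.0298, edgeR adjusted p = 3e-12), Trp53inp1 by 0.22 and Sesn1 by 0.18. Ccng2 rose by 0.22 by CPM (edgeR adjusted p = 1.02e-07) and stood at 0.04 by TPM without a call. Foxo4 rose by 0.19 by CPM (edgeR adjusted p = 3.17e-06) and stood at -0.04 by TPM without a call. Neither Foxo3 (log2 0.01, 95% interval -0.04 to 0.06, edgeR adjusted p = 0.677) nor Trp53 (log2 0.04, interval -0.01 to 0.09, edgeR adjusted p = 0.221) was called by CPM. By TPM both were called lower, at -0.19 and -0.15, and relative to the median of all genes they stood at -0.04 and -0.00.

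Among the related genes, catalase rose to 543 ± 6.72 CPM with 5-ALA, against 276 ± 2.74 CPM in mutant cells with estradiol, and Phlda1 rose to 208 ± 12.7 CPM, against 106 ± 8.41 CPM. Known FOXO-responsive genes were higher in 11 of 20, lower in 3 and not called in 6 by CPM, and higher in 3, lower in 8 and not called in 9 by TPM. The autophagy gene Gabarapl1 rose 1.49-fold and Txnip, an inhibitor of thioredoxin, 1.29-fold. Known p53-responsive genes were higher in 4, lower in 7 and not called in 9 of 20 by CPM, and higher in 2, lower in 14 and not called in 4 by TPM. Pidd1, a death domain gene, fell by 0.59 and Ei24 by 0.26 on the log2 scale, and the polyamine enzyme gene Sat1 rose 1.27-fold. Of 20 FOXO regulators 3 were higher, 6 lower and 11 not called by CPM, and 1 higher, 17 lower and 2 not called by TPM. The PI3K subunit gene Pik3r1 fell by 0.55 on the log2 scale, and the kinase gene Sgk1 rose 1.37-fold. Among p53 regulators 5 were higher, 3 lower and 8 not called by CPM, and 0 higher, 9 lower and 7 not called by TPM. Wrap53, which lies next to Trp53 and is read from the other strand, fell by 0.46, Chek2 by 0.26, and Ppp1r13b rose 1.21-fold. In the GATOR and mTORC1 arm 5 were higher, 6 lower and 9 not called by CPM, and 0 higher, 11 lower and 9 not called by TPM. Rragd fell by 0.37, and Mios of GATOR2 and Nprl3 rose by 0.31 and 0.26. Among the other family relatives, Ccng1 fell by 0.16 and Trp53inp2 by 0.23, and Sesn2, Gadd45g and Gadd45b were not called. The list medians by CPM lay between -0.04 for the family relatives and 0.09 for the FOXO-responsive genes, and by TPM between -0.24 for the p53-responsive genes and the family relatives and -0.10 for the FOXO-responsive genes.

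The fourth comparison set mutant cells with 5-ALA against WT cells with estradiol and so asked what still differed. It shares libraries with the 2 comparisons before it, so the values stand side by side and are not independent. All 8 tested members were called (background 62.3% of genes), 3 higher (background 33.3%) and 5 lower (background 29.0%), and the medians of all genes were 0.01 by CPM and 0.00 by TPM. Gadd45a was 1.94-fold higher with 5-ALA than in WT cells (log2 0.96, SE 0.0331, edgeR adjusted p = 1.49e-20), against 2.57-fold higher without 5-ALA. Sesn1 was 1.11-fold higher (log2 0.16, SE 0.0308, edgeR adjusted p = 5.96e-05), against 1.26-fold without 5-ALA. Phlda3 was 1.41-fold higher (log2 0.50, SE 0.0741, edgeR adjusted p = 1.07e-06). Trp53inp1 stood at -1.16 on the log2 scale with 5-ALA (SE 0.0254, edgeR adjusted p = 3.19e-25) and at -0.94 without it. Foxo3 stood at -0.65 with 5-ALA and -0.66 without it, Ccng2 at -0.69 and -0.91, and Foxo4 at -0.12 and -0.31. Trp53 stood at -0.06 with 5-ALA (edgeR adjusted p = 0.0323), a call that was lost, at edgeR adjusted p between 0.0515 and 0.229, without WT estradiol replicate 1 or 3, mutant estradiol replicate 1, or any 1 of the 5-ALA replicates. It was also lost without a filter on low counts (edgeR adjusted p = 0.275).

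In this comparison 13 of 20 FOXO-responsive genes were lower, 1 higher and 6 not called, and 14 of 20 p53-responsive genes were lower, 3 higher and 3 not called. On the TPM scale these were 11 lower, 1 higher and 8 not called, and 14 lower, 2 higher and 4 not called. On the log2 scale Ulk1 stood at -0.74, the death gene Bcl2l11 stood at -0.69 and Irs2 at -0.66, and among p53-responsive genes Eda2r stood at -1.14, Btg2 at -0.92 and the DNA polymerase gene Polk at -0.92. Of the p53 regulators, with 6 higher, 7 lower and 3 not called by CPM against 1, 6 and 9 by TPM, the p53 inhibitor gene Ppp1r13l stood at -1.08, Mdm2 at -0.87 and Ppp1r13b at -0.87. FOXO regulators were higher in 5, lower in 13 and not called in 2 by CPM, and 5, 11 and 4 by TPM, with Sgk1 at 0.76, Skp2 at -0.75 and Stk4 at -0.48. Skp2 was low in both groups, at 1.53 ± 0.143 CPM in mutant cells with 5-ALA and 2.55 ± 0.393 CPM in WT cells with estradiol. It reached the mean of 5 CPM needed to be named only through untreated WT cells. The GATOR and mTORC1 arm had 8 higher, 7 lower and 5 not called by CPM, and 5, 5 and 10 by TPM, with Wdr59 at 0.82, Mlst8 at 0.64 and the Rag GTPase gene Rraga at 0.43. Of the family relatives, Phlda1 stood at -0.98, Ccng1 at -0.62, Sesn2 at -0.41, Trp53inp2 at 0.68 and Gadd45g at 0.52, all called, and Gadd45b was not called. The medians by CPM were -0.13 for FOXO-responsive genes, -0.30 for p53-responsive genes, -0.13 for FOXO regulators, -0.05 for p53 regulators, 0.02 for the GATOR and mTORC1 arm and -0.29 for the family relatives.

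For each tested member the 2 genes with the most similar pattern were taken from 8633 genes with a mean of at least 5 CPM, by the root mean square (RMS) difference of centred log2 CPM over the 12 libraries. The libraries fall into 4 groups, so likeness rests largely on 4 group levels and is a description. Foxo3 was closest to Pim1, a kinase gene, with an RMS difference of 0.0466, and then to Fam126a, at 0.0675. Pim1 averaged 1193 CPM in mutant cells with 5-ALA, 1108 CPM in estradiol-treated mutant cells, 1806 CPM in WT cells with estradiol and 139 CPM in untreated WT cells. Foxo4 was closest to Mbp and Napepld, Trp53 to Vasp and Flii, and Sesn1 to AU022252 and Gga2, all with differences between 0.0307 and 0.0521. Ccng2 was closest to Ube2h, a ubiquitin-conjugating enzyme gene, at 0.122 and Crebl2 at 0.138, and Phlda3 to Tuba4a at 0.126 and Slc20a1 at 0.137. Gadd45a was closest to Cit at 0.0946 and Igtp at 0.108. Both had more CPM in each mutant group than in WT cells with estradiol, which follows from their selection by likeness to Gadd45a. Cit had 518 CPM in mutant cells with 5-ALA, 631 CPM in estradiol-treated mutant cells, 281 CPM in WT cells with estradiol and 103 CPM in untreated WT cells. The closest genes to Trp53inp1 were Ccrl2 and Calcoco1, at 0.191 and 0.219. The RMS difference is not scaled to the range of each gene, and Trp53inp1 had the widest range of the set. These differences therefore do not rank the members by how close their nearest genes are.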

How the data were processed

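Per the labels' protocols, total RNA was extracted with TRIzol for 12 libraries, and a TruSeq kit was used to build them. Per the submitters' processing notes, CASAVA 1.8.2, RSEM 1.2.20, Bowtie 1.1.1 and build mm10 were used; the sources used here give no annotation release, read length or strand setting. Per the file headers, RSEM gave each gene an expected count, a TPM value and an abundance-weighted length. The deposited expected counts are unnormalized, and reads shared by genes or transcripts are split by probability. The deposited TPM values sum to 1000000 per library within rounding. The deposited length, held as a score in bases, was used only to describe Trp53, Sesn1 and Foxo4. FPKM and effective length were not used.

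IDs were named from GENCODE M21, which matched 24746 of 25097. Expected counts were rounded and fitted in edgeR 4.0.16 (R 4.3.3) with TMM scaling, filterByExpr by group, 4 group means over 12 libraries, and robust quasi-likelihood tests. P-values were Benjamini-Hochberg adjusted over the 12115 genes tested and called below 0.05. Each SE is approximate, the fold change divided by the root of F, and the intervals are at 95%. TPM was tested as log2(TPM + 1) with limma 3.58.1, which understates changes of low genes. Alternatives were other scalings, other filters on low counts, only the groups compared, a replicate block, DESeq2 1.42.0 and leaving out each library. The edgeR fit was tested on simulated data for the first comparison, with 50 genes changed at each size. It recovered 54% of 1.25-fold, 72% of 1.5-fold, 90% of 2-fold and 94% of 4-fold changes, with 8 false calls among 11764 genes. Few genes changed in the simulation, unlike in these data, so it does not test the scaling. Libraries held 20309085 to 43548387 expected counts, and floors of 3 counts cover counting error only.

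The members and lists were chosen with earlier results of these data known. Named besides the 10 members were Alas2, every family relative, up to 3 called genes of each other list per comparison with the largest change and a mean of at least 5 CPM, and the 2 genes most like each member (offset 0.5 CPM). 1 gene that this rule names is not reported here. Same-numbered libraries did not deviate together (correlations -0.0768 to 0.0669), so the replicate numbers were not used as a pairing.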

Additional observations from a re-analysis of the deposited data

How the results depend on the processing

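With limma on log2(TPM + 1), which differs from the edgeR fit in scaling, length correction, offset and test, Trp53 turned to -0.082 with estradiol in WT cells and to 0.075 in mutant against WT cells, Phlda3 to 0.050 in mutant against WT cells, and with 5-ALA in mutant cells Foxo3 turned to -0.19, Foxo4 to -0.036 and Trp53 to -0.15. On that scale 1 member was lower with estradiol in WT cells and 3 were lower in mutant against WT cells, with 2326 genes lower in all. With 5-ALA in mutant cells 1 member was higher and 5 lower, with 806 genes higher and 5719 lower. Foxo3 with 5-ALA, which was not called by CPM, also turned sign with upper quartile scaling (-0.00192), without a filter on low counts (-0.000265) and without 5-ALA replicate 3 (-0.013). Over all 20 alternative settings its log2 change ran from -0.19 to 0.034. Globin genes (Hba and Hbb) held 6.16 to 6.57% of expected counts in mutant cells with 5-ALA and 2.24 to 2.38% in estradiol-treated mutant cells. They held 6.56 to 6.62% in WT cells with estradiol and 0.0253 to 0.0284% in untreated WT cells. The cause of the differences between scales, and the part of the globin share in them, was not tested. Scaling by DESeq2-style size factors, a stricter filter, fitting only the groups compared and DESeq2 itself changed no tested member's call or sign. Leaving out 1 library at a time, members called higher and lower ranged from 8 to 8 and 0 to 0 with estradiol in WT cells, 2 to 2 and 5 to 6 in mutant against WT cells, 3 to 3 and 3 to 3 with 5-ALA in mutant cells, and 3 to 3 and 4 to 5 in mutant cells with 5-ALA against WT cells. A replicate block, fitted although the numbers do not pair the libraries, gave 8 and 0, 2 and 5, 3 and 3, and 3 and 5 members higher and lower and changed no member's call. Phlda3 is limited by depth in untreated WT cells, and Foxo1 and Sesn3 were below what these libraries could test.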
